A study of Mus musculus with 10 samples.

Results

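The subcortical maternal complex is an assembly of proteins under the surface of the oocyte and early embryo, and the genes that encode it belong to the maternal-effect genes, whose product in the egg is needed by the embryo. The levels of 10 such genes were examined in whole mouse ovaries: Nlrp5, Ooep, Tle6, Khdc3, Padi6, Nlrp2, Zbed3, Zar1, Npm2 and Dppa3. They were chosen by gene name from the 55487 genes of the deposited table. All 10 had reads and were among the 18956 genes tested. The 10 ovaries each had their own RNA-seq library and came from 4 Control, 3 Aged and 3 Aged+CF mice of C57BL/6J background. Control mice were aged 8 weeks. The labels give 11 months for both older groups, while the methods of the study put the older mice 1 month younger. Aged+CF mice received 200 μL of CEFFE, a cell-free extract of fat tissue, at 3 μg/μL by repeated injection into the tail vein, and by the methods of the study the mice of the other groups received saline. All mice of the 3 groups were given 10 IU PMSG, a gonadotropin that stimulates follicle growth, 48 h before the ovaries were taken. All mice were female, and the labels name no pooling of animals.

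Oocytes are a small part of the ovary, and their RNA reaches these libraries mixed with that of granulosa, theca, luteal, stromal and blood vessel cells. In mice, NLRP5 (also named MATER), OOEP, TLE6 and KHDC3 (FILIA) form the core of the complex, and PADI6, NLRP2 and ZBED3 associate with it. Zar1, Npm2 and Dppa3 encode other maternal factors, which bind oocyte mRNA, remodel chromatin and protect methylated DNA in the zygote. The oocyte stores their RNA or protein while it grows, so that the embryo can use it before its own genome is active.

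Positions of the genes are given on GRCm38, in the GENCODE M21 annotation. Nlrp5 (ENSMUSG00000015721) lies on chr7:23385889-23441922 (+) and Nlrp2 (ENSMUSG00000035177) on chr7:5298547-5351035 (-). Ooep (ENSMUSG00000032346) lies on chr9:78376109-78378725 (-) and Khdc3 (ENSMUSG00000092622) on chr9:73101836-73104438 (+). Both pairs on a shared chromosome are far apart, by 18034854 bases for Nlrp5 and Nlrp2 and by 5271671 bases for Ooep and Khdc3. Tle6 (ENSMUSG00000034758) lies on chr10:81590904-81601073 (-), Padi6 (ENSMUSG00000040935) on chr4:140727355-140742643 (-) and Zbed3 (ENSMUSG00000041995) on chr13:95323612-95337841 (+). Zar1 (ENSMUSG00000063935) lies on chr5:72576806-72581254 (-), Npm2 (ENSMUSG00000047911) on chr14:70647302-70659244 (-) and Dppa3 (ENSMUSG00000046323) on chr6:122626410-122630272 (+). All are annotated as protein-coding. Khdc3 shares 790 exonic bases with Gm20509 on the same strand, which had 0 to 14 reads per ovary. Npm2 shares 39 exonic bases with Xpo7 on the same strand, which had 1375 to 2127 reads per ovary. Nlrp2 shares 105 exonic bases with the pseudogene Gm18757 on the other strand, with 0 to 6 reads. How reads in shared bases were assigned, and whether by strand, is not given in the sources used here. The counts of Khdc3, Npm2 and Nlrp2 are therefore less certain. Khdc3 shares the most bases, and Npm2 shares bases with the gene that had the most reads.

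Windows from 250 bases before to 50 bases after the transcription start were found in RefSeq (GRCm38.p6) for 8 of the 10 genes, 12 windows in all because some genes have more than 1 start. Npm2 and Dppa3 had none. The windows of the 3 genes with the largest fitted fall with age and of Tle6, the gene with the smallest, are shown 5′ to 3′ on the strand of the gene, for Nlrp5 and Tle6 at the outermost start. Capitals mark the letters CANNTG, the E-box recognised by helix-loop-helix proteins such as the oocyte factor FIGLA, TAATTG, the core recognised by the oocyte homeobox protein NOBOX, and TATAAA, searched on both strands with no overlap between different motifs required.
Nlrp5, chr7:23385639-23385938 (+): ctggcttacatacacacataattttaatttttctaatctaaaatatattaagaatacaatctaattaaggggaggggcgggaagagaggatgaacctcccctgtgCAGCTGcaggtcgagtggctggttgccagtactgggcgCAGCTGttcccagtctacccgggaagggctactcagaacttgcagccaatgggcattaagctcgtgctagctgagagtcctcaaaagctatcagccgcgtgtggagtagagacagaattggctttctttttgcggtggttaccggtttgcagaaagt
Padi6, chr4:140742594-140742893 (-): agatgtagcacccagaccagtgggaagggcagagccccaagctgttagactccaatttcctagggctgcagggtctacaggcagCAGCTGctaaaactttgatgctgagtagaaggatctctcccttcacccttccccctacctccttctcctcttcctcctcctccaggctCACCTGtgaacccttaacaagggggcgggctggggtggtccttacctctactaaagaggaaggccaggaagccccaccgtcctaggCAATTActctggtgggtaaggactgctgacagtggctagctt
Nlrp2, chr7:5350986-5351285 (-): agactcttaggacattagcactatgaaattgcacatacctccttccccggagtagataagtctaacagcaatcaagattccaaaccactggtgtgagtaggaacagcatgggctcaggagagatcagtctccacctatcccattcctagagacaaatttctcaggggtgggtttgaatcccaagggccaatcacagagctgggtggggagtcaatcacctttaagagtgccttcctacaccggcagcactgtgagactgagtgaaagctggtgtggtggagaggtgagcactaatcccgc
Tle6, chr10:81600851-81601150 (-): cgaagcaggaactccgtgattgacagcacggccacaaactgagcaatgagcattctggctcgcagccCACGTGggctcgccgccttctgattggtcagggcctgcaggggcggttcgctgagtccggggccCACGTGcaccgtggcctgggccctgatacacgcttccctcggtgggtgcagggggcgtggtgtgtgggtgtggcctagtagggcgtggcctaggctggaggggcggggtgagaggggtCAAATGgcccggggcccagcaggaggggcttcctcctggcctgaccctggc
The Tle6 window held 3 E-box matches, those of Nlrp5 and Padi6 held 2 each, and that of Nlrp2 held none. Padi6 also had 1 TAATTG match, 8 bases after the start, and Ooep had 1 at -195. CANNTG was found in 11 of the 12 windows and in 72.3% of 32851 windows of all genes. TAATTG was found in 2 of the 12 and in 8% of all, and TATAAA in 2 of the 12 and in 13.6% of all. A match is a run of letters and not a measured binding site.

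Depth was 15761789 to 21318254 reads counted on genes per ovary, and 1544 to 11585 of them fell on the 10 genes. Levels are given as reads per 1000000 counted reads (CPM), with library sizes scaled by edgeR's TMM method. They are listed with Control ovaries in the order of replicates 31, 32, 33 and 34, Aged ovaries in the order 31, 33 and 34, and Aged+CF ovaries in the order 30, 32 and 34. Aged replicate 34 stood apart from the other Aged ovaries. The summed CPM of the 6 growing-oocyte genes Zp1, Zp2, Zp3, Gdf9, Bmp15 and Oosp1 was 7.17 there, against 73.5 and 68.9 in Aged replicates 31 and 33, and the summed CPM of oviduct markers was 289.7, against 5.43 and 5.71, while that of the Control ovaries ran from 5.72 to 345. Values without that ovary are given beside the results it touches.

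Summed over the 10 genes, the level was 490, 637, 494 and 614 CPM in Control ovaries, 203, 183 and 85.1 CPM in Aged ovaries and 253, 223 and 313 CPM in Aged+CF ovaries. The 3 ranges did not overlap, and the Aged+CF ovaries lay between the others. Per kilobase of gene length (FPKM), Zbed3 was the most abundant in Control ovaries at 72.3 ± 6.73 (SD, n = 4), followed by Padi6 at 49.1 ± 7.95, Npm2 at 19.6 ± 3.48, Dppa3 at 15.9 ± 4.82, Ooep at 12.8 ± 2.81 and Nlrp5 at 10.2 ± 1.50. Tle6 at 9.65 ± 1.16, Zar1 at 9.03 ± 1.39, Khdc3 at 2.24 ± 0.674 and Nlrp2 at 1.73 ± 0.295 followed. The ranges of Zbed3 and Padi6 did not overlap with those of any gene below them, whereas the ranges of neighbours from Npm2 down to Zar1 overlapped, as did those of Khdc3 and Nlrp2. The deposited FPKM imply gene lengths, such as 6474 bases for Nlrp5, 6182 for Tle6 and 4141 for Khdc3, that exceed the 4847, 3088 and 2050 exonic bases of GENCODE M21, so this order depends on the annotation used.

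**Figure D1:**
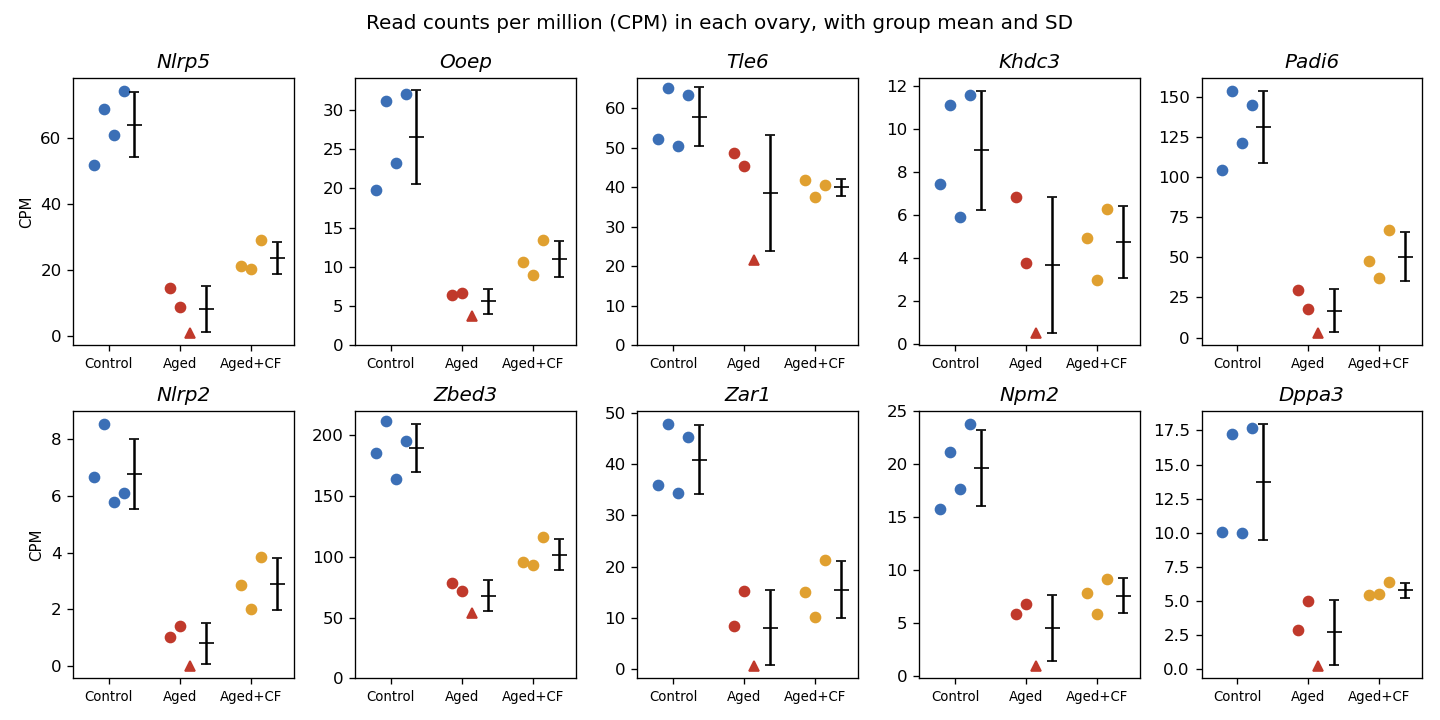
CPM (vertical axis, linear) of each of the 10 genes in each ovary of the Control, Aged and Aged+CF groups, with the group mean and SD beside the points and Aged replicate 34 drawn as a triangle. The triangle is the lowest point in all 10 panels, and the Control and Aged points overlap in the panel of Khdc3.

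To compare old with young ovaries, Aged was set against Control. The fitted level of all 10 maternal-effect genes was lower in Aged ovaries, and among those that passed the test the fall ran from 2.78-fold for Zbed3 to 8.52-fold for Nlrp2. By edgeR's quasi-likelihood test with Benjamini-Hochberg adjustment over all genes tested and a fold of at least 1.5, 7 of the 10 fell: Nlrp5, Ooep, Padi6, Nlrp2, Zbed3, Npm2 and Dppa3. Over all genes tested, 6.06% were called lower by the same rule. At an unadjusted p under 0.05, 9 of the 10 were called lower, against 9.44% of all genes, and 9 had no overlap between the Control and Aged ovaries, against 15.6%. The median log2 fold change was -2.30, against 0.00 over all genes. In whole ovaries, fewer oocytes and less RNA per oocyte cannot be told apart.

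Among the core subunits, Nlrp5, which anchors the complex, was measured at 51.8, 68.7, 61.0 and 74.3 CPM in Control, 14.7, 8.89 and 0.937 CPM in Aged and 21.2, 20.4 and 29.2 CPM in Aged+CF ovaries. Every Aged+CF ovary lay above every Aged ovary and below every Control ovary. The Aged vs Control log2 fold change was -2.97 ± 0.63 (SE), with an edgeR adjusted p of 0.0155. Ooep, a KH-domain partner of NLRP5, was measured at 19.7, 31.2, 23.3 and 32.02 CPM in Control, 6.38, 6.70 and 3.75 CPM in Aged and 10.7, 8.96 and 13.4 CPM in Aged+CF ovaries. The groups again formed 3 separate ranges, and the Aged ovaries were closer together than for Nlrp5. Its log2 fold change was -2.24 ± 0.27, with an edgeR adjusted p of 0.00359.

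Tle6, a relative of the Groucho co-repressors, kept most of its level in Aged replicates 31 and 33. It was measured at 52.2, 65.1, 50.5 and 63.4 CPM in Control, 48.7, 45.2 and 21.7 CPM in Aged and 41.8, 37.6 and 40.5 CPM in Aged+CF ovaries. Aged replicates 31 and 33 lay just under the lowest Control ovary and above all Aged+CF ovaries. The Aged vs Control log2 fold change was -0.59 ± 0.24, at the 1.5-fold limit, with an edgeR adjusted p of 0.124, and it was -0.26 without Aged replicate 34. Khdc3, another KH-domain protein of the core, was measured at 7.41, 11.1, 5.88 and 11.6 CPM in Control, 6.80, 3.74 and 0.496 CPM in Aged and 4.93, 2.99 and 6.28 CPM in Aged+CF ovaries. Its groups overlapped, with Aged replicate 31 above the lowest Control ovary. The log2 fold change was -1.29 ± 0.63, with an edgeR adjusted p of 0.196, and -0.72 without Aged replicate 34.

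Among the proteins associated with the core, Padi6, which is needed for the cytoplasmic lattices of the oocyte, was measured at 104, 154, 121 and 144 CPM in Control, 29.7, 18.1 and 2.70 CPM in Aged and 47.4, 36.8 and 66.8 CPM in Aged+CF ovaries. As for Nlrp5, the 3 groups did not overlap, and Aged replicate 34 held 2.06% of the Control mean. The log2 fold change was -2.96 ± 0.61, with an edgeR adjusted p of 0.0138. Nlrp2, a relative of Nlrp5, was measured at 6.65, 8.54, 5.78 and 6.10 CPM in Control, 1.01, 1.41 and 0 CPM in Aged and 2.87, 2.01 and 3.84 CPM in Aged+CF ovaries. No read fell on it in Aged replicate 34, where a count of 0 allows up to 0.165 CPM, and the groups did not overlap. Its log2 fold change was -3.09 ± 0.73, with an edgeR adjusted p of 0.0217. Zbed3, a zinc-finger protein linked to the place of the complex in the oocyte, was measured at 185, 212, 165 and 195 CPM in Control, 78.2, 72.0 and 54.0 CPM in Aged and 95.8, 93.3 and 116 CPM in Aged+CF ovaries. The groups did not overlap and varied little, and it had the smallest p of the 10 genes. The log2 fold change was -1.48 ± 0.15, with an edgeR adjusted p of 0.00226.

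Of the other maternal factors, Zar1, which binds and keeps maternal mRNA, was measured at 36.0, 48.0, 34.4 and 45.4 CPM in Control, 8.41, 15.2 and 0.496 CPM in Aged and 15.1, 10.1 and 21.3 CPM in Aged+CF ovaries. Aged and Control did not overlap, although the Aged ovaries spread widely. The log2 fold change was -2.36 ± 0.73, with an edgeR adjusted p of 0.0547, and without Aged replicate 34 it was -1.76, with an edgeR adjusted p of 0.0071. Npm2, a histone chaperone of the oocyte, was measured at 15.8, 21.2, 17.7 and 23.9 CPM in Control, 5.85, 6.77 and 0.882 CPM in Aged and 7.80, 5.80 and 9.09 CPM in Aged+CF ovaries. Aged and Aged+CF ovaries overlapped, and both lay below all Control ovaries. Its log2 fold change was -2.13 ± 0.52, with an edgeR adjusted p of 0.0241. Dppa3 (Stella), which guards maternal DNA methylation in the zygote, was measured at 10.0, 17.2, 9.99 and 17.7 CPM in Control, 2.86, 5.01 and 0.221 CPM in Aged and 5.45, 5.51 and 6.42 CPM in Aged+CF ovaries. The 3 groups did not overlap, and the 3 Aged+CF ovaries were the most alike. The log2 fold change was -2.36 ± 0.66, with an edgeR adjusted p of 0.0393.

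The fall was not equal over the ovaries. Aged replicate 34 was the lowest of all 10 ovaries for all 10 genes, at 0% to 5.52% of the Control mean for Nlrp2, Zar1, Nlrp5, Dppa3, Padi6, Npm2 and Khdc3, but at 14.1% for Ooep, 28.5% for Zbed3 and 37.5% for Tle6. In Aged replicates 31 and 33 together, the level was 17.9% of the Control mean for Nlrp2, 18.2% for Padi6 and 18.5% for Nlrp5, but 58.6% for Khdc3 and 81.3% for Tle6. Within the Control group, replicates 32 and 34 lay above replicates 31 and 33 for 9 of the 10 genes, Nlrp2 being the exception. Without Aged replicate 34, 8 of the 10 genes were called lower, among them Zar1, against 7.54% of all genes tested in that fit, and the median log2 fold change was -1.76. In that fit the values were -2.44 for Nlrp2, -2.41 for Padi6, -2.39 for Nlrp5, -1.98 for Ooep, -1.77 for Dppa3, -1.60 for Npm2 and -1.30 for Zbed3, with edgeR adjusted p from 0.00144 for Zbed3 to 0.00716 for Dppa3. Tle6 and Khdc3 were the genes not called, with edgeR adjusted p of 0.158 and 0.205. The count of 7 fell to 4 without Control replicate 32, where 3.38% of all genes were called lower, and to 4 without Control replicate 34, where 3.48% were.

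**Figure D2:**
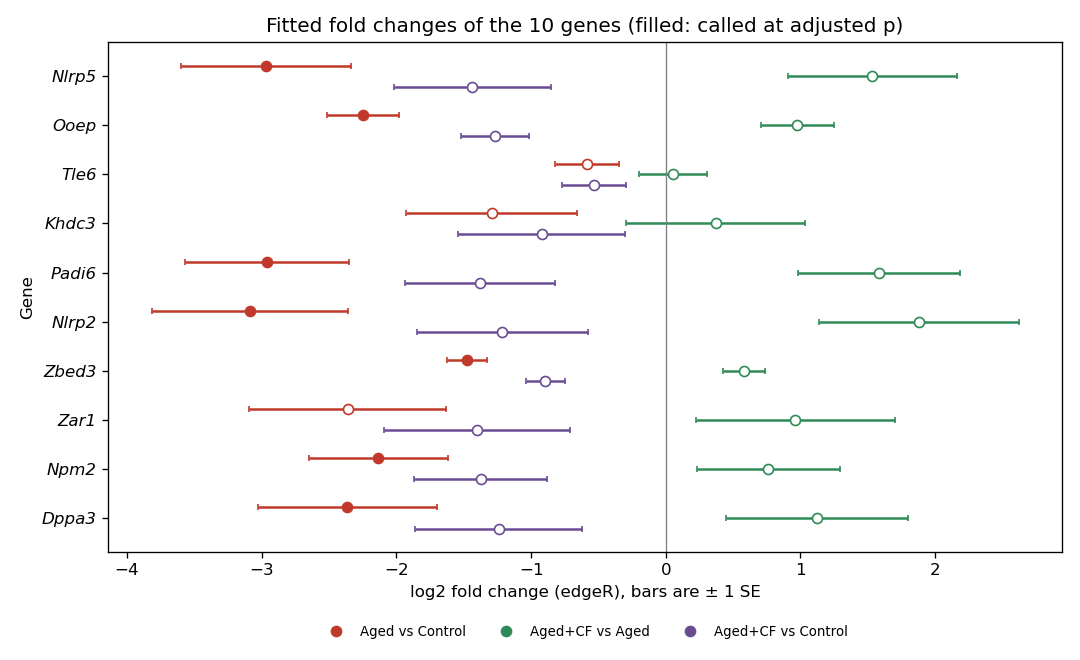
Fitted log2 fold change (horizontal axis) of each gene in the 3 comparisons named in the legend, with bars of 1 SE on each side and filled points for calls at adjusted p. The 7 filled points all belong to Aged vs Control, in which the 10 values run from -3.09 to -0.59.

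To see whether treated old ovaries differed from untreated ones, Aged+CF was set against Aged. This comparison shares the Aged ovaries with the one above, so a low Aged ovary moves both. The fitted level was higher in Aged+CF for all 10 genes, but by edgeR with adjustment over all genes none of the 10 was called, and 0 of the 18956 genes tested were called higher. At an unadjusted p under 0.05 with a fold of at least 1.5, 4 of the 10 were called higher, against 3.91% of all genes: Nlrp5, Ooep, Padi6 and Nlrp2. In 6 of the 10, which add Dppa3 and Zbed3, all Aged+CF ovaries lay above all Aged ovaries, against 10.2% of all genes. DESeq2 called 1 of the 10 higher at adjusted p, Ooep, against 1.14% of all genes.

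The log2 fold change in Aged+CF vs Aged was 1.53 ± 0.63 for Nlrp5, 0.98 ± 0.27 for Ooep, 1.58 ± 0.60 for Padi6 and 1.88 ± 0.74 for Nlrp2. Their edgeR adjusted p ran from 0.175 for Ooep to 0.272 for Nlrp5. Zbed3, with 0.58 ± 0.15 and the smallest unadjusted p in edgeR of 0.0037 (adjusted p 0.169), stayed just under the fold limit at 1.497-fold. Dppa3 had 1.12 ± 0.68, Zar1 0.96 ± 0.74, Npm2 0.76 ± 0.53 and Khdc3 0.37 ± 0.66. Tle6 had 0.05 ± 0.25, and its mean was 39.9 CPM in Aged+CF and 38.5 CPM in Aged ovaries.

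Part of these differences rested on Aged replicate 34. Without it, Tle6 and Khdc3 had log2 fold changes of -0.25 and -0.17, Npm2 had 0.25 and Zar1 0.38, while Nlrp5 had 0.98, Padi6 1.06 and Nlrp2 1.25. Ooep had 0.74, Dppa3 0.55 and Zbed3 0.42, with edgeR adjusted p of 0.114, 0.347 and 0.0979. None of the 10 was called by edgeR at adjusted p in that fit, in which 0.713% of all genes were called higher, and the adjusted p was 0.0622 for Nlrp5, 0.0726 for Nlrp2 and 0.073 for Padi6. At unadjusted p, 4 of the 10 genes were called higher in that fit, against 5.67% of all genes. Within Aged+CF, replicate 34 was the highest for 9 of the 10 genes, Tle6 being the exception, and replicate 32 was the lowest for 9, Dppa3 being the exception. Without Aged+CF replicate 34, 1 of the 10 genes was called higher at unadjusted p, against 2.82% of all genes.

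To place the treated old ovaries against the young ones, Aged+CF was compared with Control. Aged+CF ovaries held 36.9% of the Control mean for Nlrp5, 37.8% for Zar1, 38.4% for Padi6 and 38.5% for Npm2, up to 53.8% for Zbed3 and 69.1% for Tle6. All 10 genes had lower fitted levels, and none was called at adjusted p by edgeR, where 0.0422% of all genes were called lower. At unadjusted p, 5 of the 10 were called lower, against 4.36% of all genes: Nlrp5, Ooep, Padi6, Npm2 and Zbed3. In 9 of the 10, all but Khdc3, no Aged+CF ovary reached the lowest Control ovary, against 12.2% of all genes. DESeq2 called 2 of the 10 lower at adjusted p, Ooep and Zbed3, against 1.05% of all genes. The main fit shares its estimate of the spread over all groups. The spread between ovaries (biological coefficient of variation) was 0.377 in Aged, 0.209 in Control and 0.192 in Aged+CF ovaries. More of the 10 were called by edgeR at adjusted p when only these groups were fitted, as given at the end. The part of the spread in this was not tested.

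The log2 fold changes in Aged+CF vs Control lay closer together than those in Aged vs Control, from -1.44 for Nlrp5 to -0.53 for Tle6, with a median of -1.25. The smallest edgeR adjusted p was 0.0561, for Zbed3 at -0.89 ± 0.15, followed by 0.0894 for Ooep at -1.27 ± 0.25. Without Aged replicate 34, which enters this comparison only through the shared filter, scaling and estimate of the spread, 6 of the 10 were called lower at adjusted p, against 0.869% of all genes: Nlrp5, Ooep, Padi6, Zar1, Npm2 and Zbed3. At unadjusted p, the count was then 9, against 5.97% of all genes. It was 3 without Control replicate 32 or 34, where 2.83% and 3.44% of all genes were called lower, and 2 without Aged+CF replicate 30 or 32, where 3.07% and 2.26% were.

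To ask whether the 10 genes changed as the RNA of growing oocytes did, each was set against the 6 growing-oocyte genes. Their mean log2 CPM in the same ovary was subtracted from the log2 CPM of each gene (both with a prior count of 2), which gives a log2 ratio. In whole ovaries this ratio includes any reads of a gene from other cells, so it is not a level within oocytes. The 6 genes encode the zona pellucida proteins ZP1, ZP2 and ZP3, the oocyte growth factors GDF9 and BMP15, and the secreted protein OOSP1. All 6 fell in Aged vs Control, with log2 fold changes of -2.84 for Zp3, -2.78 for Zp2, -2.72 for Zp1, -2.53 for Bmp15, -2.48 for Gdf9 and -2.12 for Oosp1. An exact two-sided permutation test over ovaries was used for each of the 10 ratios, with no adjustment over them, and its smallest possible p was 0.0286 in comparisons with Control and 0.1 in Aged+CF vs Aged.

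The log2 ratio of Tle6 was 0.56, 0.43, 0.48 and 0.44 in the Control ovaries. It reached 2.25, 2.22 and 4.39 in the Aged ovaries and 1.40, 1.51 and 0.90 after CEFFE. Its 3 groups did not overlap, Aged being highest. The difference between Aged and Control was 2.47 (exact permutation p = 0.0286), and 1.75 without Aged replicate 34. The ratio of Zbed3 was 2.19 ± 0.14 (SD, n = 4) in Control, and 2.93, 2.88 and 5.70 in Aged ovaries. All Aged ovaries lay above all Control ovaries, but the difference of 1.65 (exact permutation p = 0.0286) was 0.71 without Aged replicate 34. In that ovary, Tle6 held 37.5% and Zbed3 28.5% of the Control mean, against 2.33% for the summed growing-oocyte genes. Whether part of the Tle6 and Zbed3 reads came from cells other than oocytes was not tested. Khdc3 had a difference of 1.34 and Npm2 of 0.63, and Padi6 was lower by a ratio difference of -0.36, each at the smallest possible exact permutation p of 0.0286. Nlrp5 (-0.48), Nlrp2 (-0.42), Zar1 (-0.11), Dppa3 (0.18) and Ooep (0.90) had exact permutation p from 0.0571 to 0.629. Without Aged replicate 34 the differences were 1.28 for Khdc3, 0.44 for Npm2, -0.43 for Padi6, -0.41 for Nlrp5, -0.33 for Nlrp2, 0.21 for Zar1, 0.27 for Dppa3 and 0.07 for Ooep.

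In Aged+CF vs Control, Tle6 alone of the 10 had a ratio difference at the smallest possible exact permutation p of 0.0286, by 0.79, while the other 9 differences ran from -0.13 for Zar1 to 0.42 for Zbed3. Against Aged ovaries, the ratio was lower in Aged+CF for Tle6 by -1.68, for Zbed3 by -1.22, for Khdc3 by -0.94 and for Npm2 by -0.68, and higher for Nlrp2 by 0.52. Each of these 5 was at 0.1, the smallest exact permutation p that 3 ovaries against 3 allow. With Aged replicate 34 left out they were -0.96 for Tle6, -0.29 for Zbed3, -0.88 for Khdc3, -0.49 for Npm2 and 0.43 for Nlrp2. These differences depended on the reference genes. With 7 early-oocyte genes in place of the growing-oocyte genes, the Aged vs Control difference was 1.62 for Tle6 and 0.79 for Zbed3, but -0.22 for Npm2, and for Khdc3 0.49.

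**Figure D3:**
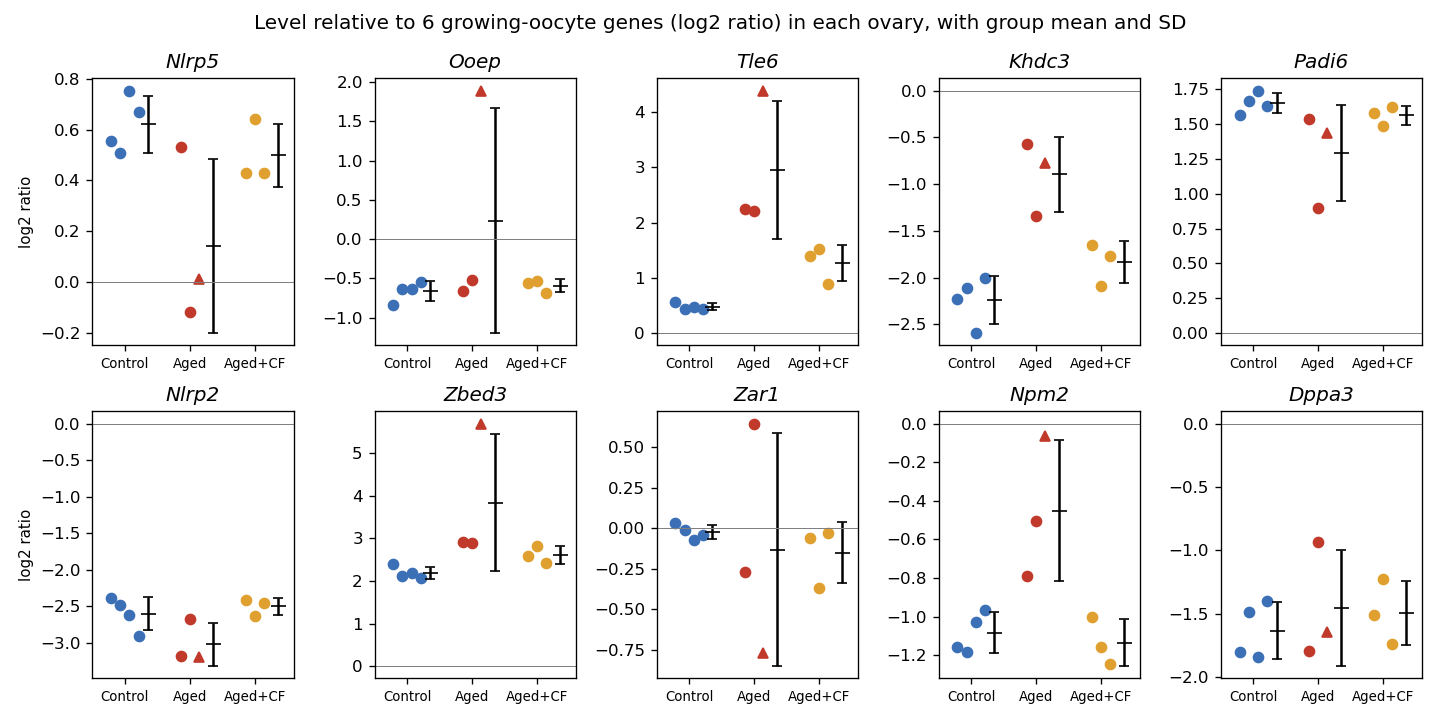
Level of each gene relative to the mean of the 6 growing-oocyte genes in the same ovary (vertical axis, log2 ratio, 0 marked by a line), with group mean and SD and Aged replicate 34 as a triangle. For Tle6, Zbed3, Khdc3 and Npm2 the Aged points lie above the Control points, and for Padi6 they lie below.

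The same comparison was made for lists of related genes. Of 14 germline relatives of the 10 genes, such as Zar1l, the Khdc1 genes and the oocyte Nlrp genes, 12 fell in Aged vs Control by edgeR at adjusted p, against 6.06% of all genes, with a median log2 fold change of -2.59. Among the 12, Nlrp4c had 18 to 24 reads in Control, 0 to 2 in Aged and 3 to 25 in Aged+CF ovaries. It passed the filter only with its Control reads, so its fall is no separate result. After CEFFE, against Aged, 8 of the 14 were called higher at unadjusted p, against 3.91% of all genes, and none at adjusted p by edgeR, with a median of 1.36. With Aged replicate 34 left out, all 14 fell with age, with a median of -2.02, and 1 of the 14, Nlrp14, was called higher in Aged+CF than in Aged ovaries at adjusted p, with a median of 0.82, against 7.54% and 0.713% of all genes. Nlrp14 had a mean of 89.9 ± 7.06 CPM in Control, 13.8 ± 10.9 CPM in Aged and 37.9 ± 9.78 CPM in Aged+CF ovaries (SD, n = 4, 3 and 3). Zar1l, the paralog of Zar1, had a log2 fold change of -1.73 in Aged vs Control, with an edgeR adjusted p of 0.0574. Of 18 relatives used in somatic cells that were tested, 2 fell (Tle4 and Nlrp10) and 1 rose (Tle5), against 6.06% of all genes called lower and 5% called higher. In the fit without Aged replicate 34, 1 of 19 tested fell (Tle4) and 3 rose (Nlrp12, Tle5 and Tle2). Over all genes, 7.54% were called lower and 8.55% higher in that fit. Nlrp12 was not tested with all ovaries included. It had 0 to 7 reads in Control, 2 to 4 in Aged+CF and up to 105 in Aged ovaries. It passed the filter of that fit only through its Aged reads, so its rise is no separate result. Npm1, the nucleolar paralog of Npm2, had a log2 fold change of -0.39 with an edgeR adjusted p of 0.0832, Npm3 had -0.32, and the Groucho genes Tle1 and Tle3 had -0.15 and -0.06. Padi2, a paralog of Padi6, had 2.43, with an edgeR adjusted p of 0.0514, and its Aged ovaries ranged from 3.10 to 37.3 CPM.

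Of 32 other maternal-effect genes, 9 fell and none rose in Aged vs Control at adjusted p, against 6.06% of all genes called lower and 5% called higher, with a median log2 fold change of -0.35. Leaving out Aged replicate 34, 11 fell, against 7.54% of all genes. The smallest p belonged to Dnmt1, the maintenance DNA methyltransferase (-1.17 ± 0.16, adjusted p 0.00496 in edgeR), Ezh2, a histone H3 methyltransferase (-1.12 ± 0.16, adjusted p 0.00515), Uhrf1, the partner of Dnmt1 (-2.08 ± 0.31, adjusted p 0.00547), and Dnmt3l, the cofactor of de novo methylation (-1.62 ± 0.26, adjusted p 0.00656). Many genes of this list are used in dividing somatic cells too. Zar1l, Nlrp4f and Nlrp14 are also among the germline relatives above, so their values enter the counts of both lists. None of the 32 was called in Aged+CF vs Aged at adjusted p by edgeR, and 7 were called higher at unadjusted p, against 3.91% of all genes. Leaving out Aged replicate 34, 2 were called higher at adjusted p, Uhrf1 and Nlrp14, against 0.713% of all genes. The smallest p with all ovaries were those of Ezh2 (0.64 ± 0.17) and Dnmt1 (0.61 ± 0.16), both with an edgeR adjusted p of 0.169.

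Of 7 early-oocyte genes tested, 5 fell in Aged vs Control at adjusted p, against 6.06% of all genes. Without Aged replicate 34, 5 did so, against 7.54% of all genes. Among the transcription factors that open the oocyte programme, Nobox had a log2 fold change of -2.51 and an edgeR adjusted p of 0.0185, and Sohlh1 had -3.48 and 0.00843. Figla, at 0 to 1.81 CPM over the ovaries, had -2.39 with an edgeR adjusted p of 0.0578, and Ddx4, a germ-cell helicase, had -1.43 with 0.0542. Sohlh1 had 39 to 62 reads in Control, 1 to 8 in Aged and 8 to 29 in Aged+CF ovaries. Figla had 12 to 29 reads in Control, 0 to 9 in Aged and 4 to 10 in Aged+CF ovaries. Both passed the filter only with their Control reads, so their falls are no separate result. After CEFFE, in Aged+CF vs Aged, Sohlh1 had 1.97, Nobox 1.22, Ddx4 0.66 and Figla 0.49, none of them called at adjusted p.

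**Figure D4:**
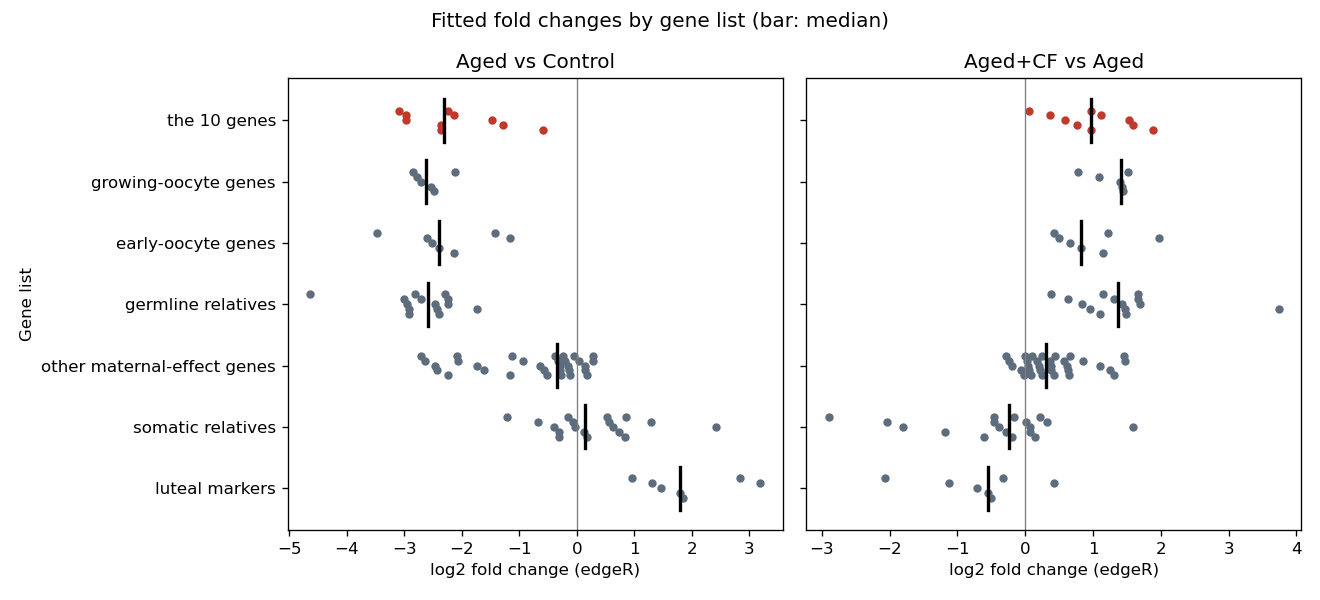
Fitted log2 fold change (horizontal axis) of every tested gene of 7 lists (vertical axis), in Aged vs Control on the left and in Aged+CF vs Aged on the right, with a bar at the median of each list. In Aged vs Control the medians were -2.30 for the 10 genes, -2.62 for growing-oocyte genes, -0.35 for other maternal-effect genes, 0.15 for somatic relatives and 1.80 for luteal markers.

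Over the 10 ovaries, the 6 other genes whose log2 CPM ran most like the mean of the 10, among 16734 candidates, were Dtl, Gdf9, Kpna7, Slc30a3, Nlrp9c and Gtsf1, with Pearson's r from 0.995 to 0.998. These r describe 3 groups that differ and libraries that the genes share. Gdf9 is an oocyte growth factor and one of the reference genes above, Kpna7 is an importin of the oocyte, Gtsf1 acts in the piRNA pathway, and Dtl is an adaptor of a ubiquitin ligase. Their log2 fold changes in Aged vs Control ran from -2.63 for Slc30a3 to -1.70 for Dtl. Of the 10 genes themselves, Npm2 ran most like the mean of the other 9 with r = 0.994, and Zbed3 least with r = 0.912.

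Other cell types differed between the groups too. All 7 luteal markers rose in Aged vs Control at adjusted p, with or without Aged replicate 34. Over all genes, 5% were called higher with it and 8.55% without it. The summed level of the luteal markers was 6608 to 11890.1 CPM in Control, 15693 to 36803 CPM in Aged and 14221 to 22297 CPM in Aged+CF ovaries. Their range in Aged overlapped with that in Aged+CF but not with that in Control. Of 10 granulosa markers, 1 fell at adjusted p, Esr2, against 6.06% of all genes, and 5 were called lower at unadjusted p, against 9.44%. All 10 had fitted values below 0. Without Aged replicate 34, 2 fell at adjusted p, Amh and Esr2, against 7.54% of all genes. The summed level of the 10 granulosa markers was 5776 to 8853 CPM in Control, 4023 to 5661 CPM in Aged and 3236 to 5440.1 CPM in Aged+CF ovaries. Of 4 endothelial markers, 3 rose in Aged vs Control at adjusted p, against 5% of all genes called higher. Of the 4 theca markers 2 fell at adjusted p, against 6.06% of all genes called lower. Of the 4 genes in the macrophage list only Ptprc rose, against 5% of all genes, and Adgre1, Cd68 and Csf1r were not called at adjusted p. None of the 5 stroma, 6 surface epithelium and 4 oviduct markers tested was called in that comparison by edgeR at adjusted p, nor at an unadjusted p with the same fold. The fit without Aged replicate 34 called 1 of the stroma markers lower, Col1a2, against 7.54% of all genes. In Aged replicate 34 the summed macrophage markers were 304 CPM, against 172 and 144 CPM in Aged replicates 31 and 33. The stroma markers summed to 4429 CPM there, against 2221 and 1256, the theca markers to 616, against 171 and 254, and the surface epithelium markers to 324, against 188 and 49.1 CPM. Of that theca sum of 616 CPM, Cyp17a1 alone made up 504 CPM, so it mostly reflects 1 gene. CPM are shares of a library, and the part of these shifts in the levels of the 10 genes was not tested.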

How the data were processed

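Total RNA of 10 mouse ovaries was sequenced by the authors, with 1 library per ovary. The authors deposited 1 table with raw read counts per gene and with FPKM values, which are counts per kilobase of gene length and per 1000000 counted reads. The submitters' processing notes name TopHat, Cufflinks 2.1.1 and the build GRCm38.p4, and the counting tool is not given in the sources used here. Groups and replicate numbers were taken from the labels, and a shared number does not mark a shared animal, so the numbers were not used as pairs.

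Counts were analysed with edgeR 4.0 in R 4.3 (filterByExpr, TMM, and the quasi-likelihood test on all 3 groups together). The SE is the log2 fold change divided by the square root of F. A gene was called at a fold of at least 1.5 and a Benjamini-Hochberg adjusted p under 0.05. The scripts were tested on simulated data. Duplicated libraries were looked for and none was found. Each p-value measures the spread between these ovaries only, and intervals and floors (3 counts) cover counting error only. The alternatives were no filter, DESeq2 size factors, DESeq2 1.42, a fit of only the groups compared, a replicate block, unadjusted p, leaving out each ovary, and for the ratios another reference list and a prior count of 0.5. The 10 genes and all lists were chosen with earlier results of these data known. Named from the lists were the 4 other maternal-effect genes with the smallest p in Aged vs Control and the 2 in Aged+CF vs Aged, the growing-oocyte genes, 4 early-oocyte genes, fixed relatives and the 6 most alike genes with a mean CPM of at least 1. Tle4, Tle5, Nlrp10 and the luteal genes' counts were added after their values were seen. The relative Zbed6 was not analysed here. Promoter sequences are from RefSeq.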

Additional observations from a re-analysis of the deposited data

How the results depend on the processing

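For each comparison, 150 fitted log2 fold changes of the 10 genes were recomputed under alternatives. All 150 kept their direction in both comparisons with Control. Between Aged+CF and Aged 148 did, and with 1 ovary left out, Tle6 ran from -0.25 to 0.24 and Khdc3 from -0.17 to 1.17, both below 0 without Aged replicate 34. At adjusted p, the number of the 10 genes called in Aged vs Control (7) was 4 when only those 2 groups were fitted. In that fit, 4.56% of all genes were called lower. With 1 ovary left out the number was 4 to 8, against 3.38% to 7.54% of all genes called lower. In Aged+CF vs Control (0) it was 8 in the fit of only those groups, against 1.37% of all genes called lower. It was 2 with DESeq2, against 1.05%, and 5 at unadjusted p, against 4.36%. When 1 ovary was left out it was 0 to 6, against 0.00511% to 0.869%. For Aged+CF vs Aged (0) it was 1 with DESeq2, against 1.14% of all genes called higher, and 4 at unadjusted p, against 3.91%. The number at unadjusted p in Aged+CF vs Aged (4) was 1 in the fit of only those groups, against 2.37% of all genes called higher. With 1 ovary left out it was 1 to 5, against 2.76% to 5.67%. In Aged+CF vs Control (5) it was 9 in the fit of only those groups, against 6.04% of all genes called lower. With 1 ovary left out it was 2 to 9 there, against 2.26% to 5.97%. The causes were not tested.

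With the replicate number as a block, 0 of the 10 genes were called at adjusted p in each of the 3 comparisons. In that fit 0.127% of all genes were called lower in Aged vs Control, against 6.06% without the block. Of all genes, 0% were called higher in Aged+CF vs Aged and 0% lower in Aged+CF vs Control. At unadjusted p, 8 of the 10 were called in Aged vs Control, against 8.46% of all genes called lower. In Aged+CF vs Aged 1 was called, against 2.5% called higher, and in Aged+CF vs Control 2, against 3.02% called lower. Deviations of same-numbered ovaries correlated from -0.185 to 0.153. With so few ovaries per group, these values cannot show whether a number marks a shared day, cage or batch. The labels do not say what the number stands for, and the ovaries were not treated as paired.

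Ratios to growing-oocyte genes were higher for 3 genes in Aged+CF vs Aged, for 6 with early-oocyte genes as reference, for 5 with a prior count of 0.5 and for 3 to 5 with 1 ovary left out. With early-oocyte genes as reference, the Aged vs Control difference was -0.22 for Npm2 and -0.68 for Dppa3, the Aged+CF vs Aged difference was 0.75 for Zar1, 0.082 for Npm2 and 0.73 for Dppa3, and the Aged+CF vs Control difference was -0.024 for Ooep, all of them opposite in sign to the main values. With a prior count of 0.5, Zar1 and Dppa3 had 0.0039 and 0.055 in Aged+CF vs Aged. With 1 ovary left out, signs turned too. Nlrp2 ran from -0.0055 to 0.17 and Npm2 from -0.12 to 0.0027 in Aged+CF vs Control, Dppa3 from -0.084 to 0.35 and Zar1 from -0.50 to 0.21 in Aged vs Control. Against Aged, the Aged+CF difference ran from -0.34 to 0.37 for Zar1 and from -0.21 to 0.22 for Dppa3. With 2 Aged ovaries the exact test cannot reach 0.05. Depth limits Nlrp2, Khdc3, Zar1 and Dppa3, which had under 10 reads in Aged replicate 34.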
